A study of Mus musculus with 18 samples.

Results

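Slc34a2, Tmem92, Trim43a, Trim43b, Trim43c and Ccna1 are the mouse counterparts of genes used as markers of human DUX4 activity. They were taken by symbol from a table of 24028 mouse genes, and all 6 were found in it. Their read counts are given in 18 RNA-seq libraries of C2C12, a mouse myoblast line, in 6 groups of 3 separate cultures. The comparison asks which of the 6 genes respond to mouse Dux, to human DUX4, to both or to neither.

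There were 3 lines, each a clonal derivative of C2C12 with an integrated doxycycline-inducible transgene. The first carried codon-altered mouse Dux, the second codon-altered human DUX4 and the third firefly luciferase, the control protein. In each line the induced group received doxycycline at 2 ug/ml for 36 h, and the uninduced group was harvested at the same time without it. All 6 groups grew with puromycin at 2.6 ug/ml, which selects for the transgene. Each factor was tested in 1 clone, so line, clone and transgene cannot be told apart. Reads of the transgenes were not analysed here, so the amounts of the 2 factors in their clones are not known from these values.

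Dux and DUX4 are transcription factors with a pair of DNA-binding homeodomains. Each is normally active in the early cleavage embryo of its own species, where it switches on a burst of embryonic genes. DUX4 is silent in healthy adult muscle, and its misplaced expression there causes facioscapulohumeral muscular dystrophy, so genes that it switches on serve as its markers in patient muscle. Slc34a2 encodes a sodium-dependent phosphate cotransporter of lung and gut epithelium. Tmem92 encodes a transmembrane protein. The Trim43 genes encode tripartite-motif proteins, a family of which many members attach ubiquitin. Ccna1 encodes cyclin A1, an A-type cyclin that is needed for male meiosis.

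RefSeq promoter sequences (GRCm38.p6, 250 bases before to 50 after the annotated start) were available for 3 of the 6 genes. They are shown because these genes gave 3 different outcomes, namely counts with mouse Dux alone (Slc34a2), a rise with both factors (Trim43a) and a rise with neither (Ccna1). Capitals mark AATCA on either strand, the end of the recognition sequence known for both factors, so a match on the other strand reads TGATT. The windows are chr5:53049103-53049402 on the plus strand for Slc34a2, chr9:88580641-88580940 on the plus strand for Trim43a and chr3:55055006-55055305 on the minus strand for Ccna1. The Slc34a2 window lies at the start at 53049353, inside the annotated gene, whose first annotated base is 53038081. The Ccna1 window lies at the start at 55055055, also inside the annotated gene, which on the minus strand begins at 55055501. The sequences at these outer starts were not searched.

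Slc34a2: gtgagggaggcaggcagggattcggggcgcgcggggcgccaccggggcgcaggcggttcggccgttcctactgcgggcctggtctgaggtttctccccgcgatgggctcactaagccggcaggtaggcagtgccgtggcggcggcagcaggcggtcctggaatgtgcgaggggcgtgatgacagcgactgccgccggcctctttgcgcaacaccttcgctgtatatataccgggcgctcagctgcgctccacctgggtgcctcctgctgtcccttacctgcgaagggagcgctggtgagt
Trim43a: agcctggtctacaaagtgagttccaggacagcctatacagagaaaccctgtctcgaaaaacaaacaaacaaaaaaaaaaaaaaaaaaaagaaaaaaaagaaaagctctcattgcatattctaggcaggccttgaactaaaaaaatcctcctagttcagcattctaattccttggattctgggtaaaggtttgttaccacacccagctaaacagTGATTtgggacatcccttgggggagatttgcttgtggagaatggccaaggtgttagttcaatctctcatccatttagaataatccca
Ccna1: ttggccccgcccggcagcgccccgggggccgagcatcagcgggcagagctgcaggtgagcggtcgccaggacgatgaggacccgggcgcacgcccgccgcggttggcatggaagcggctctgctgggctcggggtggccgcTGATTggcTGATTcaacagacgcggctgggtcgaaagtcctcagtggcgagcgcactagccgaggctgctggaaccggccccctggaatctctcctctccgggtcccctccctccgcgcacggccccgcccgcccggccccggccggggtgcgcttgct

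AATCA occurred 0 times in the Slc34a2 window, 1 time in the Trim43a window and 2 times in the Ccna1 window. Of 32851 promoter windows of the same length, 37.0% held it. The longer ATNNAATCA, searched on both strands and containing the shorter motif, was in none of the 3 windows and in 3.0% of all windows. The Slc34a2 window was 68.7% G and C, the Trim43a window 39.0% and the Ccna1 window 74.0%.

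The libraries held 11010586 to 17179642 counts. Levels are given as CPM (counts scaled to a common library total, with TMM factors between libraries). The first replicates of the mouse Dux line stood apart from the others of their groups: chi-square per degree of freedom was 33.24 and 35.56 between induced library 1 and the others, 5.022 and 5.098 between uninduced library 1 and the others, and at most 2.739 between all other replicates. Calls for the Dux line that were lost without either library are named beside the result, with the values of the Trim43 genes and Ccna1 without them. The C2C12 label was checked with 6 myoblast genes, of which none was at 0 in any group, with summed levels of 836 to 3280 CPM. Of these, 5 fell and 1 rose with Dux, 4 fell and 2 rose with DUX4, and 6 fell in the luciferase line. Over all genes tested, 34.8%, 33.1% and 16.4% fell. Myod1 was at 26.2 CPM uninduced and 3.67 CPM induced in the DUX4 line, and at 195.0 CPM in the uninduced luciferase line. In the Dux line, Myf5 was at 0.258 CPM uninduced and 0.0438 CPM induced.

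Of the 6 genes, 5 had enough counts to be tested (Ccna1 had too few). With mouse Dux all 5 rose at an adjusted p under 0.05 in the quasi-likelihood test of edgeR, where 34.1% of the 13602 genes tested rose. Slc34a2 had no count in the DUX4 and luciferase lines, so it did not rise there, and no fall could be seen. With human DUX4 the other 4 of the 5 rose, where 34.4% of genes rose. With doxycycline in the luciferase line 0 of the 5 rose, where 14.7% of genes rose, and 0 fell, where 16.4% fell. At an unadjusted p under 0.05 edgeR had 0 and DESeq2 called 0, with 2 of its adjusted p-values missing. All 5 genes passed the filter on low counts only through induced groups of the factors, in which they are high. For Slc34a2 and Trim43a this was the induced Dux group alone. The numbers of genes that rose therefore describe the genes and are no evidence of their own.

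**Figure D1:**
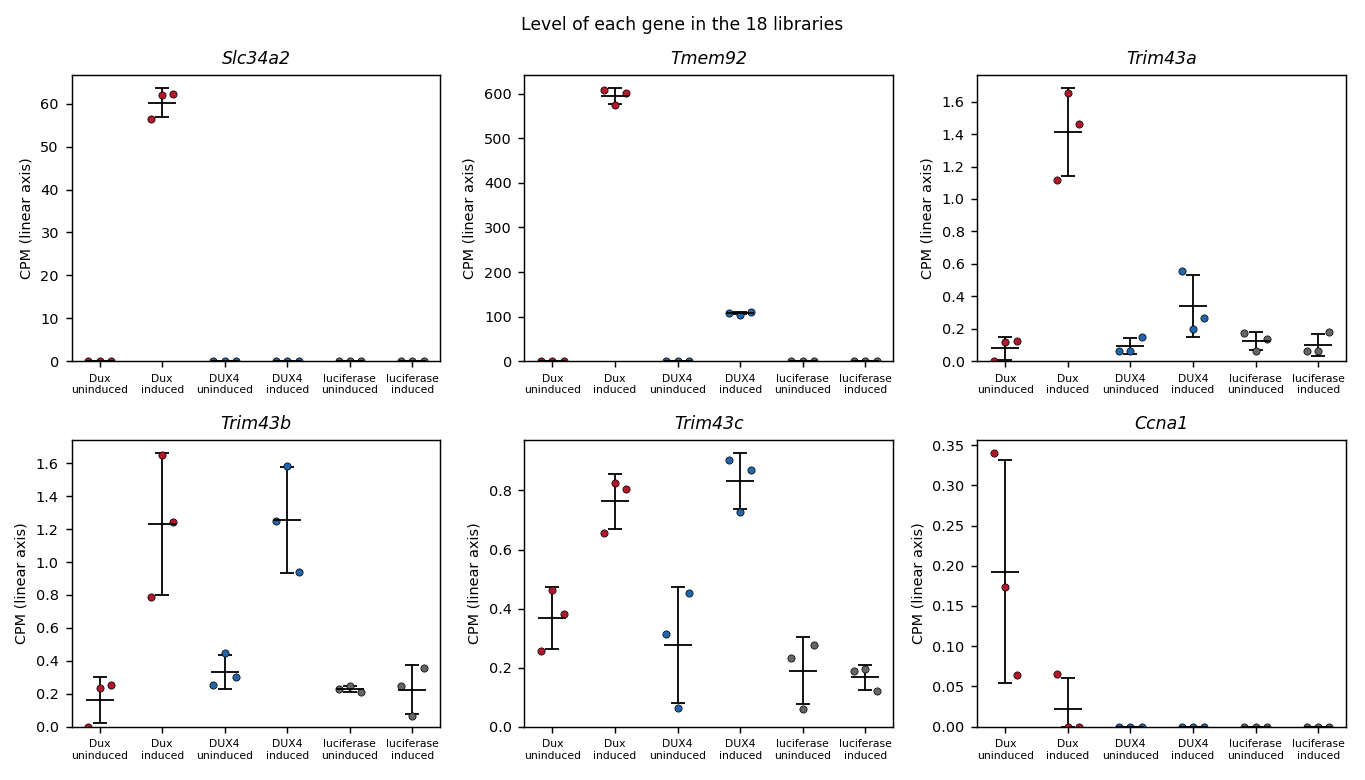
CPM of each gene (linear axes from 0, a scale of its own in each panel) in the 18 libraries, by group; points are libraries, the long bar is the mean and the error bars are 1 SD (n = 3, cut at 0). Slc34a2 is high in the induced Dux group alone, Tmem92, Trim43b and Trim43c are higher in both induced factor groups, Trim43a is highest with Dux, and Ccna1 is counted only in the Dux line.

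Slc34a2, the phosphate cotransporter gene, was counted with mouse Dux and not with human DUX4. It lies on chromosome 5 at 53038081 to 53071664 (plus strand, GRCm38), and its annotated exons cover 5013 bases. The 3 induced Dux libraries held 857, 827 and 850 counts, and the 3 uninduced ones held 1, 0 and 0. Every library of the DUX4 and luciferase lines, induced or not, held 0 counts. The induced Dux libraries thus stood above all others with no overlap.

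The level with mouse Dux was 60.24 ± 3.363 CPM (SD, n = 3), 2686 times the uninduced level with a 95% exact interval of 481.7 to 106100 for counting error. The edgeR response was 10.94 on the log2 scale (SE 0.24, adjusted p = 3.948e-12), a value that rests on 1 uninduced count and became 12.85 without uninduced library 1. Its SE understates the counting error, which the exact interval gives. A count of 0 over the 3 induced DUX4 libraries allows up to 0.0675 CPM, and the level with mouse Dux was 890.5-fold above that limit. The difference between the 2 responses could not be estimated, because the DUX4 line held no count. The order of its levels was the induced Dux group, then the uninduced Dux group at 0.0283 CPM, which did not differ beyond its spread from the 4 groups at 0.

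No stretch of 50 bases of the Slc34a2 transcript is shared with another annotated gene. An antisense gene, Gm17182, overlaps it over 1502 bases and was not analysed here. None of the 3 nearest genes with a matched position on each side had its pattern. Sel1l3, 35.4 kb away, had 1 count in the induced Dux group, and 5033403H07Rik, 43.6 kb away on the other side, had 0 in every library. Farther out, Anapc4, a subunit of the anaphase-promoting complex, fell with Dux by 0.45 on the log2 scale, and Rbpj, the Notch pathway's DNA-binding factor, rose by 0.68.

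Markers of cells that normally use Slc34a2 were at or near 0, with Abca3 as the exception. Of 7 alveolar type 2 cell markers, the surfactant genes Sftpa1, Sftpb, Sftpc and Sftpd were all at 0 in the induced Dux group. The summed level of the list was 22.7 to 34.6 CPM induced and 29.3 to 35.2 uninduced in that line, nearly all of it from Abca3, a lipid transporter gene. The 6 epithelial markers summed to 2.18 to 2.37 CPM induced and 1.61 to 2.17 uninduced, with Epcam and Krt18 at 0 in the uninduced group and none at 0 in the induced one. In bulk RNA a gene turned on weakly in many cells and strongly in few cannot be told apart.

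Of 5 other phosphate transporter genes, 3 could be tested and 2 rose with mouse Dux, where 34.1% of all genes tested rose. They were Slc20a2, by 0.88 (SE 0.07), and Slc20a1, by 0.56 (SE 0.05) on the log2 scale, both housekeeping sodium-phosphate cotransporters. With human DUX4 the same 2 genes fell, Slc20a1 by 1.09 (log2, SE 0.05) and Slc20a2 by 0.41 (SE 0.07), where 33.1% of genes fell. In the luciferase line Slc20a1 also fell, by 0.43, where 16.4% of genes fell. The difference between the Dux and DUX4 responses was 1.65 for Slc20a1 (edgeR adjusted p = 2.007e-13). The phosphate exporter Xpr1 did not pass in any of the 3 responses, and Slc34a1 and Slc34a3, the kidney relatives of Slc34a2, had too few counts.

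Tmem92 rose strongly with both factors and reached the highest level of the 6 genes. It lies on chromosome 11 at 94777217 to 94782703 (minus strand, GRCm38). In the Dux line its counts were 9246, 7656 and 8201 induced and 2, 6 and 2 uninduced. In the DUX4 line they were 1566, 1583 and 1651 induced and 1, 3 and 2 uninduced. In the luciferase line they were 2, 2 and 2 induced and 4, 2 and 4 uninduced. The induced groups of both factors lay above every other library, and the induced Dux libraries lay above the induced DUX4 ones.

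With mouse Dux, Tmem92 went from 0.2151 ± 0.1171 to 594.6 ± 17.45 CPM (SD, n = 3), a log2 response of 11.33 (SE 0.11, edgeR adjusted p = 2.232e-23). With human DUX4 it went from 0.1353 ± 0.06628 to 108.0 ± 3.14 CPM, a log2 response of 9.57 (SE 0.13, adjusted p = 1.909e-20). The counted ratio was 2661 (95% exact interval 1447 to 5550) with Dux and 806.8 (370.4 to 2200) with DUX4. The SE of 0.11 and 0.13 are narrower than these intervals and understate the error, because the uninduced groups held few counts. In the luciferase line the log2 difference was -0.70 (SE 0.48, adjusted p = 0.4751). The 4 low groups, at 0.1242 to 0.2151 CPM, overlapped one another.

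Between the induced groups the Tmem92 level was 5.513 times higher with Dux than with DUX4 (95% exact interval 5.346 to 5.687, counting error only). The log2 responses differed by 1.75 (SE 0.56, edgeR adjusted p = 0.04845). This call was lost with library size as the only scaling (1.55, adjusted p = 0.07896), with no filter on low counts (1.75, 0.06664) and when single libraries were left out. It was lost without Dux uninduced library 1 (1.64, adjusted p = 0.0765) or 3 (1.46, 0.1176), without DUX4 uninduced library 2 (1.40, 0.2628) or 3 (1.68, 0.1173), and without DUX4 induced library 2 (1.73, 0.05325). Without Dux uninduced library 2 the difference was 2.34 (adjusted p = 0.02108). Of the 4 genes with counts in all 3 lines, Tmem92 was the 1 with a higher response to Dux than to DUX4 by this test, where 32.9% of all genes tested had one; 0 of the 4 had a lower one, where 32.3% of all genes did, and edgeR at an unadjusted p under 0.05 and DESeq2 also gave 0.

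The gene whose pattern over the 18 libraries was closest to Tmem92 lies beside it. Likeness was the root mean square difference of log2 CPM after each gene's mean was removed, and it was 0.541 for Gm11544, listed as an unprocessed pseudogene in GENCODE and as protein-coding in RefSeq, on chromosome 11 at 94845358 to 94846092, 62.7 kb from Tmem92. Gm11544 held 3673, 3182 and 3415 counts in the induced Dux libraries and 3, 4 and 3 in the uninduced ones. It held 1413, 1475 and 1495 counts in the induced DUX4 libraries and 1, 1 and 0 in the uninduced ones. Like Tmem92, it was high in the 2 induced factor groups with no overlap with the rest.

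Gm11544 rose by 10.04 (log2, SE 0.14) with Dux and by 10.87 (SE 0.18) with DUX4, and the responses differed by -0.83 (SE 0.72, edgeR adjusted p = 0.3938). The SE of the single responses understate the error, because the uninduced groups held few counts. It shares 40 stretches of 50 bases with Tmem92, 2.01% of those in the Tmem92 transcript, and none of 100 bases. The next most alike genes were Pramef25 (0.951) and Gm13119 (1.2), which reached 3360 and 1370 CPM with Dux and 77.4 and 21.9 CPM with DUX4. The identifier of Gm11544 in the count table did not match the annotation, so it was placed by its symbol. Of the 3 nearest genes on each side whose identifiers did match, 4 could be tested, and none of these rose with both factors. Xylt2, 99.7 kb away, rose with DUX4 by 0.59 (log2) and had a difference of 0.05 with Dux, and Col1a1, the type I collagen gene 154 kb away, fell with DUX4 by 2.59. Sgca, the alpha-sarcoglycan gene of muscle membranes, fell by 2.44 with Dux and fell by 3.15 with DUX4.

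**Figure D2:**
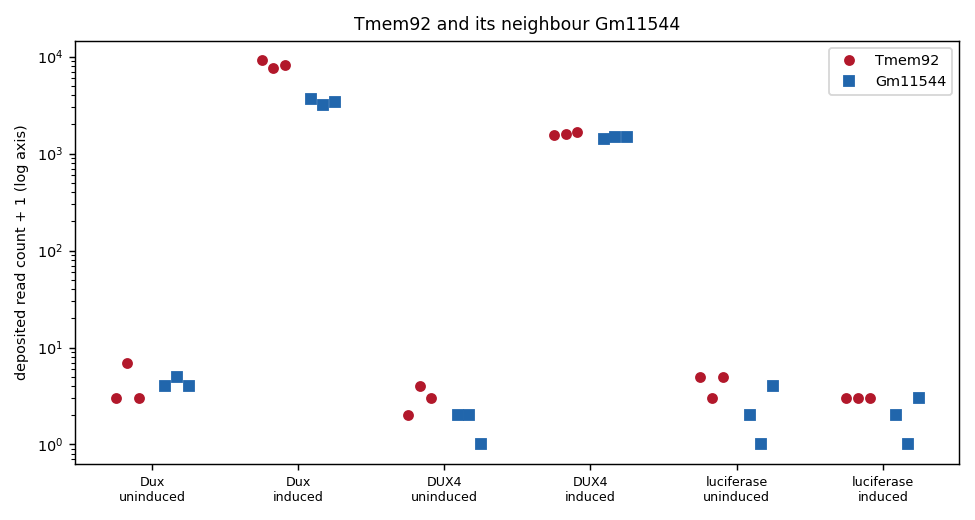
Deposited counts plus 1 (log axis) of Tmem92 (circles) and Gm11544 (squares) in the 18 libraries, by group; each point is a library. Both genes stand above 1000 counts in the 6 libraries with an induced factor and below 10 in the other 12.

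The 3 Trim43 genes are near-identical copies on chromosome 9, which limits how far each can be read alone. Trim43a spans 88580891 to 88588819 (plus strand), Trim43c 88839164 to 88848190 (plus strand) and Trim43b 89084624 to 89092835 (minus strand) in GRCm38. Over their aligned coding bases Trim43a and Trim43b are 98.4% identical, Trim43b and Trim43c 97.8%, and Trim43a and Trim43c 96.9%. The first 90 coding bases of each annotated transcript are shown with capitals at the 3 positions where the copies are not all the same, because reads can be told apart only at such positions.

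Trim43a: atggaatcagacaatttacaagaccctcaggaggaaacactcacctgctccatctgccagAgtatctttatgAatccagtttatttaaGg
Trim43b: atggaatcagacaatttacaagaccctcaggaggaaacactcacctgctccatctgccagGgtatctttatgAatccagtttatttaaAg
Trim43c: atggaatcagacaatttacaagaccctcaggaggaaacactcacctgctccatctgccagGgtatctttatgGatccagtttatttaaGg

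Of all stretches of 50 bases, 48.1% in Trim43a, 48.8% in Trim43b and 59.3% in Trim43c occur in another annotated gene, and for 100 bases the shares are 14.8%, 20.9% and 32.0%. Neither the read length nor the treatment of shared reads is stated in the labels, so the counts of single copies are uncertain. The sum over the 3 copies was therefore fitted as well.

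Summed over the copies, Trim43 rose with both factors, from a low base to a low level. The Dux line held 39, 55 and 48 counts induced and 3, 14 and 12 uninduced. The DUX4 line held 39, 38 and 31 induced and 10, 9 and 12 uninduced. The luciferase line held 8, 5 and 11 induced and 11, 6 and 9 uninduced. All induced libraries of both factors lay above all other libraries, while the induced Dux and induced DUX4 libraries overlapped in CPM.

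The summed Trim43 level went from 0.6105 ± 0.3091 to 3.404 ± 0.7885 CPM with Dux (SD, n = 3), a log2 response of 2.37 (SE 0.29, edgeR adjusted p = 4.882e-07). It went from 0.7026 ± 0.1771 to 2.432 ± 0.3257 CPM with DUX4, a log2 response of 1.80 (SE 0.30, adjusted p = 2.463e-05). In the luciferase line the log2 difference was -0.12 (SE 0.43, adjusted p = 0.8764). The Dux and DUX4 responses differed by 0.57 (SE 0.46, adjusted p = 0.2866), which does not show that they are equal. Against the luciferase response, the Dux response was higher by 2.49 (adjusted p = 0.0005505) and the DUX4 response by 1.92 (adjusted p = 0.005139). Without Dux uninduced library 1, whose 3 counts were the fewest of all libraries, the Dux response was 2.08 (adjusted p = 2.993e-06). It was 2.53 without Dux induced library 1.

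Trim43a had the largest fitted response of the copies to mouse Dux. Its counts were 17, 22 and 20 with Dux against 0, 2 and 2 without, and 8, 3 and 4 with DUX4 against 1, 1 and 2 without. The luciferase libraries held 1, 1 and 3 induced and 3, 1 and 2 uninduced. The log2 response was 3.85 with Dux (SE 0.47, edgeR adjusted p = 6.199e-07) and 1.83 with DUX4 (SE 0.65, adjusted p = 0.01884). The Dux response was 3.44 without Dux uninduced library 1 and 3.99 without Dux induced library 1. The DUX4 call was lost without DUX4 induced library 1 (1.30, adjusted p = 0.1628) or without DUX4 uninduced library 1 (1.62, 0.0672) or 2 (1.64, 0.06493). The level was 4.147 times higher with Dux than with DUX4 (95% exact interval 2.323 to 7.87), with no overlap of libraries. The test of the difference between the responses gave 2.02 (SE 1.04, adjusted p = 0.09945), and 2.55 (adjusted p = 0.04913) without DUX4 induced library 1.

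The induced levels of Trim43b overlapped between the 2 factors. Its counts were 12, 22 and 17 with Dux against 0, 4 and 4 without, and 18, 24 and 14 with DUX4 against 4, 7 and 4 without. The luciferase libraries held 4, 1 and 6 induced and 4, 4 and 3 uninduced. The log2 response was 2.71 with Dux (SE 0.50, edgeR adjusted p = 7.852e-05) and 1.89 with DUX4 (SE 0.42, adjusted p = 0.0005944). The Dux response was 2.28 without Dux uninduced library 1 and 2.95 without Dux induced library 1. The induced Dux level was 0.9601 times the induced DUX4 level, with a 95% exact interval of 0.6439 to 1.429.

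Trim43c had the smallest fitted response of the copies to Dux. Its counts were 10, 11 and 11 with Dux against 3, 8 and 6 without, and 13, 11 and 13 with DUX4 against 5, 1 and 6 without. The luciferase libraries held 3, 3 and 2 induced and 4, 1 and 4 uninduced. The log2 response was 1.61 with DUX4 (SE 0.41, edgeR adjusted p = 0.001915) and 0.98 with Dux (SE 0.39, adjusted p = 0.03261). Without Dux induced library 1 the Dux response was 1.07 (edgeR adjusted p = 0.04114). The Dux call was lost with DESeq2 (1.02, adjusted p = 0.07217), with library size as the only scaling (0.74, 0.09702), with no filter on low counts (0.97, 0.06169) and without Dux uninduced library 1 (0.82, 0.09677) or 3 (0.99, 0.07078) or Dux induced library 2 (0.92, 0.08015) or 3 (0.93, 0.07883).

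Trim43c is also the copy with a second gene on top of it. 9330159M07Rik, a noncoding transcript gene on the opposite strand, overlaps it over 7955 bases and shares 31.1% of its 50-base stretches. That gene rose from 2.5 ± 0.386 to 12.57 ± 1.41 CPM with DUX4 (log2 2.32, SE 0.20) and from 2.143 ± 0.609 to 5.49 ± 1.32 CPM with Dux (log2 1.31, SE 0.23). Its Dux response minus its DUX4 response was -1.01 (log2, edgeR adjusted p = 0.01026). The labels do not say whether counting used the strand, and its part in the Trim43c counts was not tested.

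Against the luciferase response, 3 of the 4 genes counted in all 3 lines responded more to Dux, where 30.4% of genes tested did. They were Tmem92, by 12.03, Trim43a, by 4.10, and Trim43b, by 2.71 on the log2 scale. Against the same luciferase response, 1 of the 4 had a higher response to DUX4 (Tmem92 by 10.27), where 28.3% of genes had one. The corresponding DUX4 differences were 2.08 for Trim43a (SE 1.03, edgeR adjusted p = 0.09965), 1.89 for Trim43b (SE 0.81, adjusted p = 0.05687) and 1.77 for Trim43c (SE 0.77, adjusted p = 0.05887). For Trim43c with Dux the difference was 1.15 (SE 0.75, adjusted p = 0.2135). The Trim43b difference passed with DESeq2 (1.95, adjusted p = 0.04307), with only the groups compared (1.89, 0.02858), with a replicate block (1.93, 0.04254) and in 5 of the 18 fits that left out 1 library, with adjusted p-values of 0.03464 to 0.04955. The Trim43c difference with DUX4 passed without DUX4 uninduced library 3 (2.25, 0.02614) or luciferase uninduced library 2 (2.19, 0.02244). The 2 sets share the luciferase libraries.

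The make-up of the Trim43 reads was also compared between the induced groups of the 2 factors. Trim43a held 43.59%, 40.0% and 41.67% of the reads of the 3 copies with Dux and 20.51%, 7.895% and 12.9% with DUX4, so the groups did not overlap. The means were 41.75% ± 1.796 and 13.77% ± 6.352 (SD, n = 3). Trim43b held 35.4% ± 4.615 with Dux and 51.49% ± 10.12 with DUX4, and Trim43c 22.85% ± 2.821 and 34.74% ± 6.609. Each of the 3 differences had an exact two-sided permutation p = 0.1 (adjusted over 3 comparisons 0.1), which is the smallest that 3 libraries against 3 can give. In the uninduced groups Trim43a held 13.79% of the reads in the Dux line (4 of 29, 95% exact interval 3.889 to 31.66%) and 12.9% in the DUX4 line (4 of 31, 3.63 to 29.83%).

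**Figure D3:**
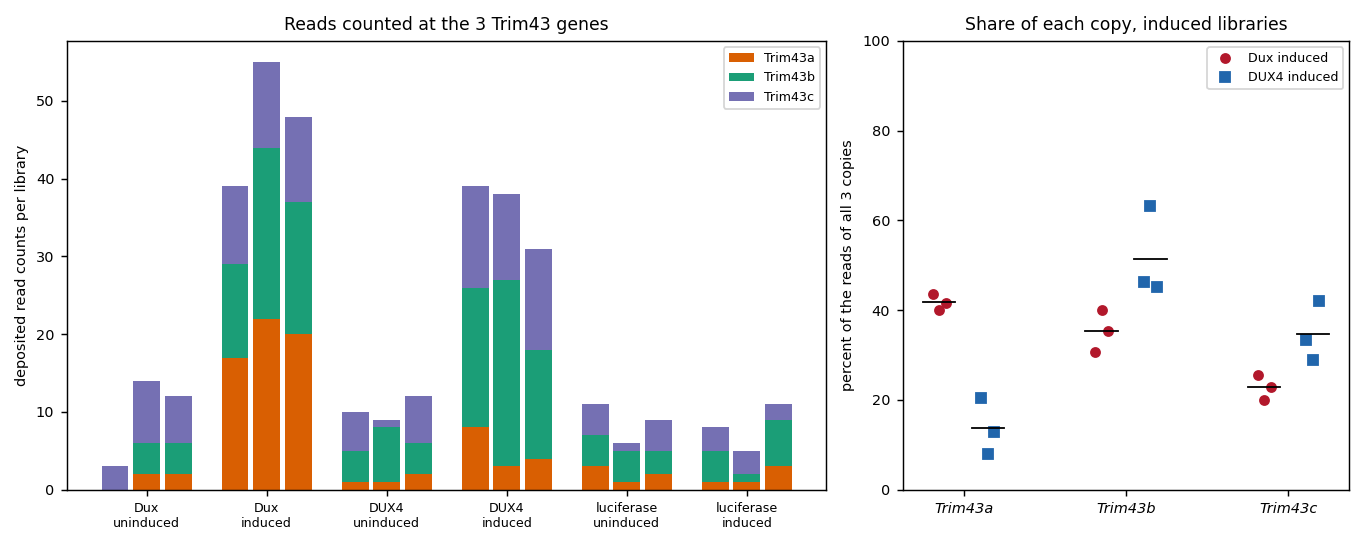
Left, deposited counts of the 3 Trim43 copies per library (stacked bars from 0, 3 libraries a group); right, percent of the reads of all 3 copies held by each copy in the induced Dux (circles) and induced DUX4 (squares) libraries, with group means as bars. The summed counts reach 31 to 55 in both induced factor groups and 3 to 14 in the others, and Trim43a holds 40.0% to 43.59% with Dux against 7.895% to 20.51% with DUX4.

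The nearest genes to the Trim43 copies gave other patterns. 9430037G07Rik, 6.5 kb from Trim43a, rose with DUX4 by 1.62 (log2, edgeR adjusted p = 6.076e-08) and not at this threshold with Dux (0.40, adjusted p = 0.06553). Zfp949, a zinc-finger gene 9.83 kb away on the other side, rose with DUX4 by 0.34 (adjusted p = 0.01471). AF529169, 494 kb from Trim43b, rose with Dux by 3.10 (adjusted p = 8.283e-05), from 7 to 59 counts.

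Among the other TRIM genes, 41 of 63 in the table could be tested. With Dux 15 rose and 13 fell, with a median log2 response of 0.0973, where 34.1% of all genes tested rose and 34.8% fell. With DUX4 21 rose and 8 fell, where 34.4% of genes rose and 33.1% fell. The median was 0.178, or 0.181 with a gene at 0 in both groups left out and Trim30a at its ratio over a floor of 3 counts. With doxycycline in the luciferase line 5 rose and 4 fell, where 14.7% of genes rose and 16.4% fell. The highest response to Dux was that of Trim75, with 171 counts induced and 0 uninduced, 60.43-fold above the floor, and with 0 counts in both DUX4 groups. With DUX4 the highest fitted value was that of Trim30a, an interferon-inducible gene with 9 counts induced and 0 uninduced. That value depends on the fit, and the counts give a ratio of 3.026 over the floor, which leaves out the counting error of the 9 counts. Trim30a therefore cannot be ranked above Trim36 (ratio 3.53, 95% exact interval 2.849 to 4.404). The lowest response to DUX4 was that of Trim66, which fell by 5.12 (log2, SE 0.32) and rose in the luciferase line by 1.78 (SE 0.24).

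Ccna1, the cyclin A1 gene, rose with neither factor. It lies on chromosome 3 at 55045469 to 55055501 (minus strand, GRCm38). The uninduced Dux libraries held 4, 3 and 1 counts and the induced ones 1, 0 and 0. Every library of the DUX4 and luciferase lines held 0. The counts were thus found in the Dux line alone, mostly in its uninduced cultures, and its induced and uninduced libraries overlapped.

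The Ccna1 level was 0.1924 ± 0.1388 CPM uninduced and 0.02192 ± 0.03797 CPM induced in the Dux line (SD, n = 3), a ratio of 0.1325 with a 95% exact interval of 0.002986 to 0.9884. In the edgeR fit without the filter on low counts the log2 difference was -2.57 (SE 1.25, adjusted p = 0.09591). With a floor of 3 counts for the groups at 0, the uninduced Dux level was 2.674-fold that of the uninduced DUX4 line. It was 2.876-fold that of the uninduced luciferase line. These ratios leave out the counting error of the 8 uninduced Dux counts, so they are not lower limits. Of its 8 uninduced counts 4 came from library 1, and without that library the uninduced level was 0.1189 CPM. The ratios over the floor were then 1.816 and 1.953, and the induced over uninduced ratio was 0.1952 (0.003964 to 1.973). The single induced count also came from library 1. A count of 0 over the 3 induced DUX4 libraries allows up to 0.0675 CPM, so a rise of Ccna1 below that level was not detectable at this depth. The antisense gene 4931419H13Rik, which overlaps it over 260 bases, had 0 counts in every library.

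Markers of the germ cells that normally express Ccna1 were low. Of 9 spermatocyte and spermatid markers, the acrosome gene Acr and the protamine gene Prm2 were at 0 in every group, and the list summed to 1.51 to 4.03 CPM in the induced Dux libraries and 3.14 to 4.12 in the uninduced ones. Sycp1, a synaptonemal complex gene, was at 2.4 to 3.83 CPM in all 6 groups.

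Of 13 listed cyclin and cyclin-dependent kinase genes of dividing cells, 12 could be tested. With Dux 3 rose and 5 fell, where 34.1% of all genes tested rose and 34.8% fell. With DUX4 3 rose and 8 fell, where 34.4% of genes rose and 33.1% fell. With doxycycline in the luciferase line 9 fell and 0 rose, where 16.4% of genes fell and 14.7% rose (edgeR at an unadjusted p under 0.05 and DESeq2 also gave 0). Ccna2, the somatic A-type cyclin, fell by 0.51 (log2, SE 0.09) with Dux, by 2.54 (SE 0.10) with DUX4. In the luciferase line Ccna2 fell by 2.73 (SE 0.13). Its DUX4 and luciferase responses differed by 0.19 (SE 0.17, edgeR adjusted p = 0.3649). Ccnd2, a D-type cyclin of early G1, rose by 1.76 with Dux and 2.52 with DUX4, and the mitotic cyclin gene Ccnb1 fell by 2.83 with DUX4 and fell by 2.78 in the luciferase line. Falls of Ccna2 and Ccnb1 of that size were therefore also present in the luciferase control line.

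**Figure D4:**
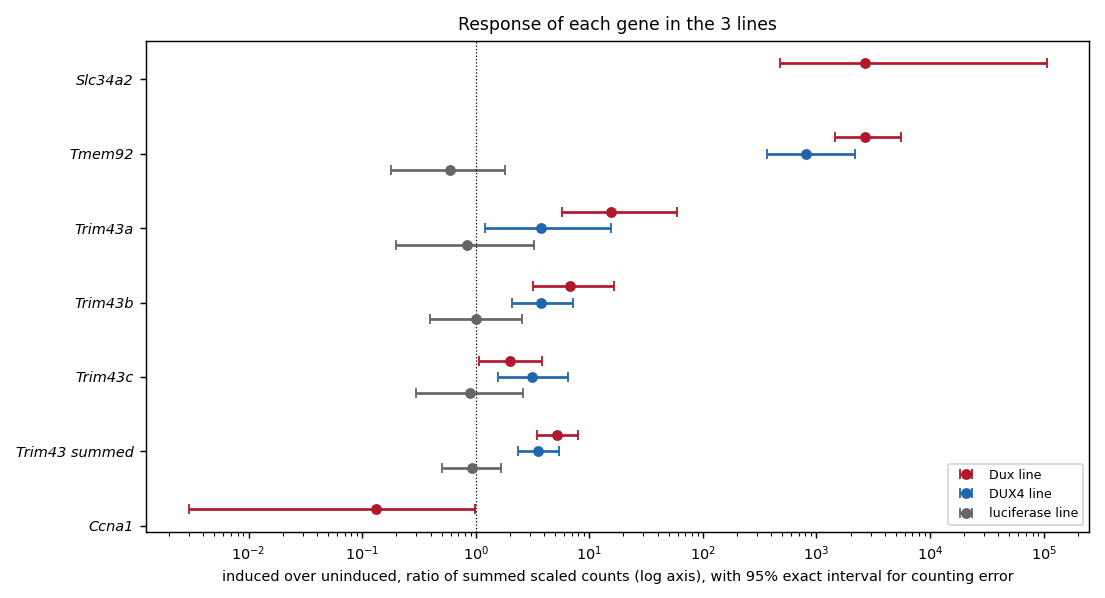
Induced over uninduced ratio of the summed, scaled counts of each gene (log axis) in the Dux, DUX4 and luciferase lines, with 95% exact intervals that cover counting error only; the dotted line marks a ratio of 1, and no point is drawn where both groups held at most 3 counts. Slc34a2 and Tmem92 stand at 2686 and 2661 with Dux, Tmem92 at 806.8 with DUX4, the Trim43 copies between 1.996 and 15.64 with either factor, and Ccna1 at 0.1325 with Dux.

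Per kilobase of annotated exon, the level in the induced Dux group was 271.9 CPM per kb for Tmem92, 12.02 for Slc34a2, 0.7115 for Trim43a, 0.5432 for Trim43b, 0.3835 for Trim43c and 0.01195 for Ccna1. In the induced DUX4 group it was 49.38 CPM per kb for Tmem92, 0.5561 for Trim43b, 0.4189 for Trim43c, 0.1718 for Trim43a and 0 for Slc34a2 and Ccna1. Tmem92 thus led with both factors, and Trim43a was the highest copy with Dux and the lowest with DUX4.

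Other mouse counterparts of human DUX4 targets give the setting for these genes: the embryonic Zscan4, Prame-like and Usp17-like genes, Rfpl4b and Kdm4d. Of 26 listed, 23 were in the table, 16 could be tested and 5 had no count in any library. The list was drawn up with earlier results of these libraries known, so it is no independent evidence of direction. Several of its genes, such as Pramef17, Usp17lc and Rfpl4b, passed the filter on low counts only through the induced Dux group. Their rise with Dux was therefore largely fixed by the filter. Many of the 16 are copies within the Zscan4 or Usp17-like families. Zscan4c and Zscan4f, for example, held 789049 and 786414 counts in the induced Dux group and 165 and 165 in the induced DUX4 group. Whether such copies carry the same reads was not tested, so the 16 may not be separate observations. With Dux all 16 rose, where 34.1% of all genes tested rose. The median log2 response was 11.5, against -0.00528 over all genes. With DUX4 8 of the 16 rose, where 34.4% of genes rose. The median was 1.06, or 0.731 without 5 genes that had at most 3 counts in both groups. In the luciferase line 0 passed in either direction, where 14.7% of genes rose and 16.4% fell. At an unadjusted p under 0.05 and with DESeq2 the number was also 0.

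Pramef25, a Prame-like gene, had the highest DUX4 response of that list, 7.21 (log2, edgeR adjusted p = 3.707e-19), below the 9.57 of Tmem92. Pramef6 had the highest Dux response, with 18868 counts induced and 1 uninduced, a ratio of 20000 with a 95% exact interval of 3590 to 790100. Zscan4f, of the family that marks the mouse embryo at zygotic genome activation, rose by 12.55 with Dux and 0.47 with DUX4. Pramef8 had the lowest Dux response, 2.35. The difference between the Dux and DUX4 responses passed for 12 of the 16 genes, each higher with Dux, where 32.9% of all genes tested were higher. Of the 5 tested genes described here it passed for 1, Tmem92, and for Slc34a2 it could not be estimated. With DESeq2 it passed for 16 of the 16 and for 2 of the 5, the second being Slc34a2.

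**Figure D5:**
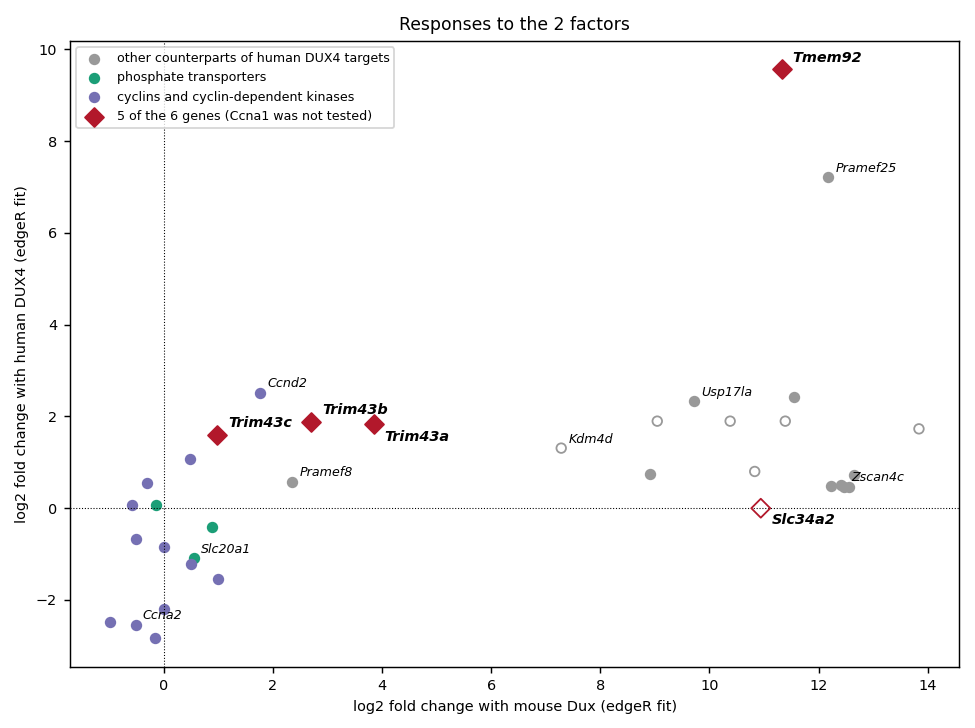
Log2 fold change with human DUX4 against that with mouse Dux (edgeR fit) for 5 of the 6 genes (diamonds; Ccna1 was not tested) and for the tested genes of 3 lists (circles); open symbols had at most 3 counts in a group of either line, so their value depends on the fit's prior count. Tmem92 stands highest on the DUX4 axis, at 9.57, and the Trim43 genes lie between 0.98 and 3.85 on the Dux axis.

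The genes most alike to the others over the 18 libraries were as follows. For Slc34a2 they were Grp, which encodes gastrin-releasing peptide (root mean square difference 0.168), Gm13128 (0.181) and Tmem132c (0.258), which reached 63.7, 51.3 and 53.6 CPM with Dux and were at 0 CPM in both DUX4 groups. For Trim43a they were Gpcpd1 (0.387), Lmbr1l (0.401) and 9130024F11Rik (0.416), with log2 responses of 2.43, 2.36 and 2.68 to Dux and 1.02, 0.98 and 0.70 to DUX4. For Trim43b they were Ctr9 (0.428), a subunit of the PAF1 transcription complex, Dusp8 (0.449) and Nrip1 (0.458). For Trim43c they were Dock8 (0.326), Map3k8 (0.392) and Rnft2 (0.396), with DUX4 responses of 1.51, 1.08 and 1.31. These likenesses are descriptions over libraries that share lines and treatments.

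Markers of other cells moved in some groups. The 5 macrophage and leukocyte genes summed to 44.5 to 46.4 CPM in the induced DUX4 libraries and 19.2 to 20.5 in the uninduced ones, with the leukocyte gene Ptprc at 0 and Adgre1 at 0.0696 CPM in the induced group. Of the 3 tested, Cd68 and Csf1r rose with DUX4 by 3.58 and 2.44 (log2), and Cd14 fell by 0.44. In the Dux line the list summed to 11.4 to 14.7 CPM induced and 12.2 to 14.1 uninduced, with Adgre1 at 0 in both. The 4 endothelial genes summed to 0.526 to 1.47 CPM in the induced and 0.174 to 0.255 in the uninduced Dux libraries, with 0 CPM of Cdh5 uninduced and 0.145 induced (adjusted p = 0.01241). They summed to 0.348 to 0.99 CPM in the induced and 0.25 to 0.377 in the uninduced DUX4 libraries, and to 22.5 to 27.2 CPM in the luciferase line, nearly all from Cdh5. Their part in the results for the 6 genes was not tested.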

How the data were processed

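Polyadenylated RNA of 18 C2C12 cultures was sequenced, 3 for each of 6 groups taken from the labels. The authors deposited raw whole-number read counts per gene. The submitters' processing notes name mm10 as the build and list TopHat2 2.0.12, Bowtie2 2.2.3 and CASAVA. The program that counted reads, its annotation and its strand setting are not stated in the labels. Library totals were 11010586 to 17179642 counts.

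Positions and transcript stretches came from GENCODE vM21 (GRCm38), which matched 22835 genes (95.0%). The 18 libraries were fitted together, with a mean for each of the 6 groups, in edgeR 4.0.16 (R 4.3.3, TMM scaling, filterByExpr by group, two-sided quasi-likelihood F test), with Benjamini-Hochberg adjustment over the 13602 genes tested. The biological coefficient of variation was 6.25%. SE is the log2 fold change divided by the root of F. Where a group held few counts it can be far smaller than the counting error, which the exact intervals give. A gene was called at an adjusted p under 0.05. Each difference of responses was a contrast of the same model. A gene with no count in a group is set at a floor of 3 counts over the group. Exact (Clopper-Pearson) 95% intervals cover counting error only. A floor covers the counting error of the group at 0 and not that of the group set against it. P-values measure the spread between cultures of 1 clone.

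Alternatives were DESeq2 1.42.0, other scalings, no filter, only the groups compared, a replicate block and leaving out each library; those on the summed Trim43 copies and the levels without Dux libraries 1 were chosen after seeing the data. The fit was tested on simulated counts. The 6 genes and all lists were chosen with earlier results of these data known. Named genes were the 6, the highest and lowest of each list, the 3 most alike genes and the 3 nearest on each side, plus genes picked for illustration after their values were seen (such as Ccna2, Slc20a1 and the overlapping genes).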

Additional observations from a re-analysis of the deposited data

Results flagged for a closer look

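The results below were picked out because 2 lines differed in their response by a test of the difference itself, the edgeR contrast with Benjamini-Hochberg adjustment over all genes. Tmem92 had a higher response to Dux than to DUX4 by 1.75 on the log2 scale, a call that was lost under other settings and without single libraries. Its Dux response exceeded the luciferase response by 12.03 and its DUX4 response exceeded it by 10.27, with all 3 induced libraries of each factor above every luciferase library. The Dux response exceeded the luciferase response by 4.10 for Trim43a, 2.71 for Trim43b and 2.49 for the 3 Trim43 copies summed. The DUX4 response of the summed copies exceeded the luciferase response by 1.92.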

How the results depend on the processing

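Of 853 single-gene values under up to 25 alternatives, 823 kept their side of the threshold. Another 17 lost the call in the same direction, 13 gained one and 0 calls reversed. Some values could not change, such as the DUX4 and luciferase responses of Slc34a2, which rest on 0 counts. Leaving out a library of another line also moved a response little. The share that kept their side is therefore no measure of how firm the calls are. Values without a call could change direction, and the luciferase response of Trim43b ranged from -0.50 to 0.40 on the log2 scale. Of the 5 tested genes described here, 1 had a higher response to Dux than to DUX4 in the fit reported, where 32.9% of all genes tested had one. The number was 2 with DESeq2 (the second was Slc34a2, whose difference over a line with no count is set by the fit). It was 0 with library size as the only scaling, 0 with no filter and 0 to 2 when 1 library was left out. Of the same 5 genes, 1 had a higher response to DUX4 than to luciferase, where 28.3% of all genes tested had one. The number was 2 with DESeq2, 2 with only the groups compared and 1 to 2 when 1 library was left out. The added gene was Trim43b in the first 2 of these. With the replicate block it was 2, with Trim43b at 1.93 (adjusted p = 0.04254). Over all genes tested, those that rose in the luciferase line numbered 2004, 3032 with only the groups compared and 1543 to 2894 when 1 library was left out. The labels number replicates alike in both groups of a line but state no pairing, and the fit reported did not pair the cultures. The deviations of same-numbered libraries correlated at -0.0306 to 0.2193, over 0.1 in 2 of 9 pairs. Of the 9 induced libraries, 6 correlated best with their own number. Whether same-numbered cultures shared a batch was not tested. Library size as the only scaling shifted the median of all genes in the Dux response by -0.244, and all Dux responses with it. Low counts of Trim43 and Ccna1 limit what the depth can show.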
